A study of Homo sapiens with 6 samples.

Results

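The death receptors, caspases and FLIP form the extrinsic route of apoptosis, described here by 8 genes: the receptor genes FAS, TNFRSF10A, TNFRSF10B and TNFRSF1A, the adaptor gene FADD, the initiator caspase gene CASP8, and the inhibitor genes CFLAR and XIAP. They were chosen by name, and every probe that the platform annotation gives to 1 of them was taken, so that they are 8 of the 18852 genes named on the array and 13 of its 48803 probes. CASP8 had 4 probes, TNFRSF10B had 3 and each of the other genes had 1. Transcripts were measured in IGROV-1, an established human ovarian carcinoma cell line, on single-colour Illumina bead arrays. The 3 CpG-ODN arrays came from cells kept with the oligonucleotide ODN1826 at 10 µM for 24 h, and the 3 saline arrays from cells given saline, with no duration in the labels. All cells were of this 1 line, grown alone in culture. Whether the arrays of a group stand for separate cultures is not in the labels, and the spread behind each p-value is that between these arrays, which may be technical.

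In this pathway a ligand such as FASLG, TNFSF10 (TRAIL) or TNF gathers receptors that carry a death domain. FAS and the TRAIL receptors recruit FADD directly, while TNFRSF1A does so through TRADD. FADD in turn gathers procaspase-8, which cleaves itself and then its substrates, among them BID. FLIP, the product of CFLAR, resembles caspase-8 but lacks its protease activity and competes for or pairs with it in the complex, and XIAP binds and blocks active caspases downstream. Ovarian carcinoma cells are known for often resisting TRAIL and FAS ligand, and the FLIP and XIAP proteins are among the inhibitors studied in that setting. The single comparison asked how the oligonucleotide changes the transcripts of these cells.

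The agent itself is shown because its CpG motifs are what Toll-like receptor 9 is known to recognise, and the capitals mark them. ODN1826 is a sequence commonly used with the mouse receptor.
ODN1826: tccatgaCGttcctgaCGtt

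The sequence upstream of CASP8 is shown because this gene had the lowest log2 fold change of the 8. It is the 250 bases before the most upstream start that the RefSeq table of GRCh38.p14 lists for the gene, on the plus strand at chr2:201233213-201233462, and interferon, through STAT proteins, is among the signals known to raise CASP8. Capitals mark the 1 match, on either strand, to TTCNNNGAA, a pattern of STAT sites.
CASP8: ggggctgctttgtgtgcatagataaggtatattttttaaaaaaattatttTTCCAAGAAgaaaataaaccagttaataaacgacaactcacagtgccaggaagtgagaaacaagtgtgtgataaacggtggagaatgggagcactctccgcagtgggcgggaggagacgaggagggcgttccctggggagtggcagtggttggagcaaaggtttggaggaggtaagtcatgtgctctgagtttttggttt
The pattern was found in 6.57% of the 35116 listed upstream windows of this length and in none of the other 2 windows listed for CASP8. A match describes letters and is not a bound site.

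Between 17142 and 18426 probes were detected on the CpG-ODN arrays and between 17625 and 18790 on the saline arrays, a probe counting as detected at a detection p under 0.05. Across probes, pairs of CpG-ODN arrays correlated at 0.964 to 0.983, below the 0.989 to 0.991 of the saline pairs. A CpG-ODN array with a saline array correlated at 0.976 to 0.990, so the CpG-ODN arrays were no more alike than arrays of different groups. Of 11 ovarian carcinoma epithelial markers, 8 were detected on all 6 arrays, among them PAX8, EPCAM and KRT8, while CLDN4 was detected on none. The leukocyte markers PTPRC, CD3E, NKG7 and CLEC4C and the fibroblast markers COL1A2, COL3A1 and LUM were detected on no array. CD14 and CD68 were detected on all 6 arrays, LYZ on 2 CpG-ODN and 3 saline arrays, DCN on 1 CpG-ODN and 2 saline arrays, and COL1A1 on 1 CpG-ODN array. The summed intensity of the leukocyte markers ranged from 1041 to 1192 on CpG-ODN arrays and from 932.2 to 1047 on saline arrays, and that of the fibroblast markers from 79.2 to 125.0 on CpG-ODN arrays and from 96.5 to 127.9 on saline arrays. Of 4 endothelial markers, CDH5 and CLDN5 were detected on no array and VWF and PECAM1 on all 6, and the summed intensity of the 4 ranged from 484.8 to 647.8 on CpG-ODN arrays and from 687.1 to 738.9 on saline arrays. The part of these differences in the results was not tested. Levels are given below as log2 of the background-corrected, quantile-normalized intensity, on which the undetected values of the 13 probes ranged from 4.75 to 5.57, and they compare arrays for 1 probe and not 1 probe with another.

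Transcripts of the chain from the death receptors to caspase-8, and of the inhibitor genes CFLAR and XIAP, were detected in these cells. No difference between CpG-ODN and saline passed the test. In RNA of whole cultures, fewer cells with a transcript and less of it per cell cannot be told apart. Each of the 8 genes had at least 1 probe detected on 3 or more arrays, and 10 of the 13 probes were tested on that basis. In limma, 0 of the 10 had an adjusted p under 0.05, as had 0% of the 17950 probes tested, and every one of the 10 had an adjusted p of 1.00. At an unadjusted p under 0.05 there was 1 of the 10, a CASP8 probe, against 3.58% of all tested probes (643). The CpG-ODN mean was higher for 5 and lower for 5, with a median log2 fold change of 0.03, against 48.1% higher and a median of −0.01 over all tested probes. The split by direction lay near that of the array as a whole.

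**Figure D1:**
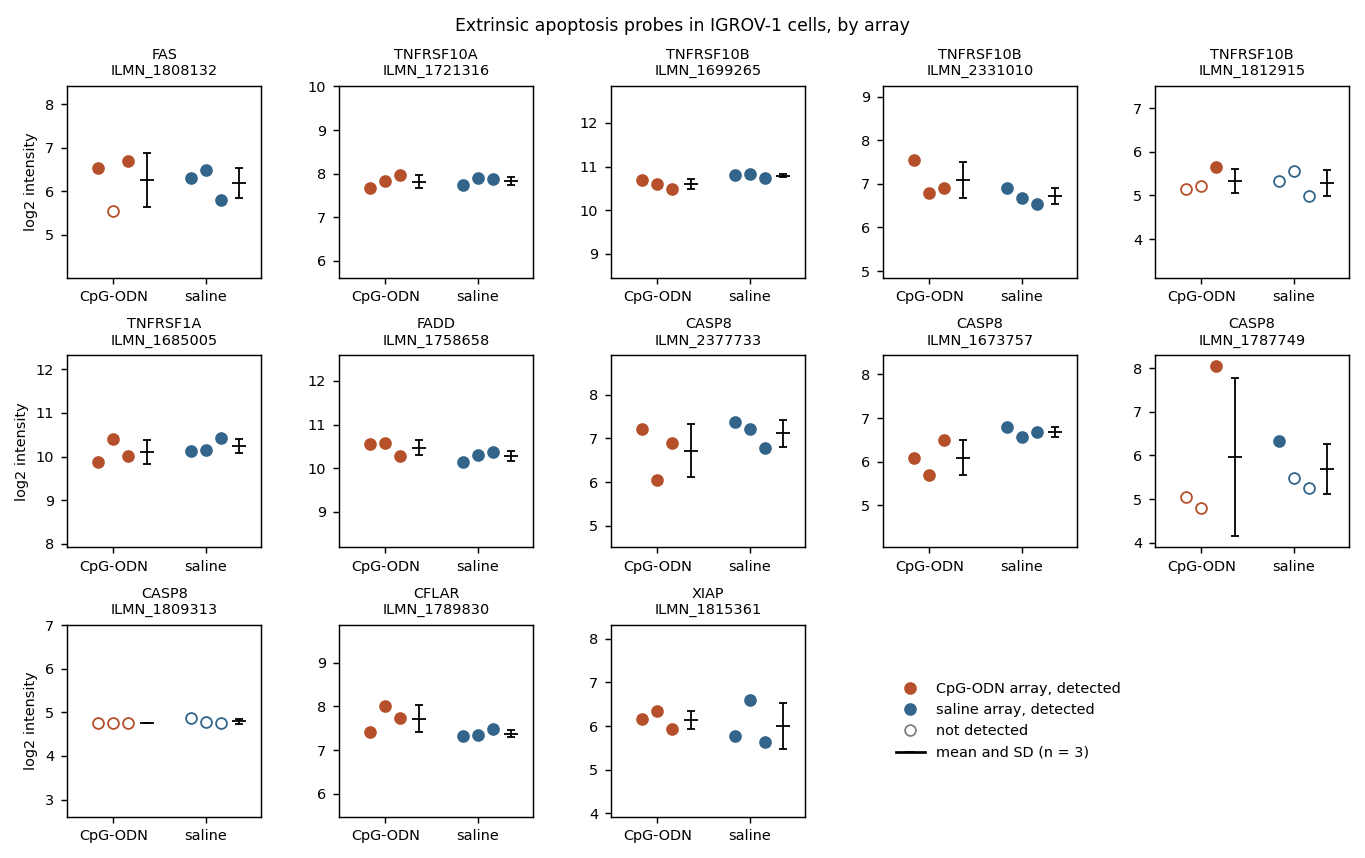
Log2 intensity of the 13 probes (vertical axes, each spanning the same number of log2 units) on the 3 CpG-ODN arrays and the 3 saline arrays. Filled points were detected, open points were not, and bars give the mean and SD. The groups lie apart for the tested probes TNFRSF10B ILMN_1699265 and CASP8 ILMN_1673757, and CASP8 ILMN_1787749 stands out on CpG-ODN array 3 at 8.05.

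Of the receptors, FAS, which binds FAS ligand, lay close to background. Its probe (ILMN_1808132) gave 6.54, 5.56 and 6.70 on CpG-ODN arrays 1 to 3, against 6.29, 6.48 and 5.81 on saline arrays 1 to 3. CpG-ODN array 2 was the only one on which it was not detected, and the groups overlapped. The means were 6.27 ± 0.62 in CpG-ODN and 6.19 ± 0.35 in saline (SD, n = 3 each). The log2 fold change was 0.07 ± 0.31 (SE), and its 95% interval reached from −0.62 to 0.76. FAS lay at 0.43 without CpG-ODN array 2 and at −0.15 without CpG-ODN array 3, so its direction depended on single arrays.

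TNFRSF10A encodes TRAIL receptor 1. It gave 7.67, 7.82 and 7.96 on the CpG-ODN arrays and 7.73, 7.91 and 7.87 on the saline arrays, detected on all 6. The groups overlapped and their means differed by −0.02 ± 0.17 (SE) on the log2 scale. The 95% interval of the fold, CpG-ODN over saline, ran from 0.762 to 1.28, so a change of 1.5-fold or more in either direction lay outside it.

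TNFRSF10B encodes TRAIL receptor 2, a known p53 target, and the means of its tested probes differed in opposite directions. The brighter probe (ILMN_1699265) gave 10.70, 10.60 and 10.48 on the CpG-ODN arrays, against 10.80, 10.82 and 10.74 on the saline arrays. All CpG-ODN arrays lay below all saline arrays, at a log2 fold change of −0.19 ± 0.16 (SE), and the 95% interval from −0.55 to 0.16 held 0. The second tested probe (ILMN_2331010) gave 7.55, 6.79 and 6.91 on the CpG-ODN arrays and 6.91, 6.68 and 6.55 on the saline arrays. CpG-ODN array 1 was the highest of the 6 and CpG-ODN array 2 fell below saline array 1, so the groups overlapped, and the log2 fold change was 0.37 ± 0.23 (SE), or 0.14 without CpG-ODN array 1. The third probe (ILMN_1812915) was detected on 1 CpG-ODN array and 0 saline arrays, lay between 4.97 and 5.65 and was not tested.

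TNFRSF1A, the main receptor for TNF, was detected on all 6 arrays. It gave 9.88, 10.41 and 10.01 on the CpG-ODN arrays and 10.13, 10.16 and 10.43 on the saline arrays. The groups overlapped throughout, and the log2 fold change was −0.14 ± 0.19 (SE). Its 95% interval reached from −0.58 to 0.30, and the value was −0.025 without CpG-ODN array 1 and −0.29 without CpG-ODN array 2.

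FADD, the adaptor that joins the receptors to caspase-8, was detected on all 6 arrays as well. It gave 10.55, 10.58 and 10.27 on the CpG-ODN arrays, against 10.14, 10.31 and 10.37 on the saline arrays. CpG-ODN arrays 1 and 2 lay above every saline array and CpG-ODN array 3 between them, for a log2 fold change of 0.19 ± 0.17 (SE). The 95% interval of the fold, from 0.876 to 1.49, held no change of 1.5-fold, and the log2 fold change was 0.027 with array weights.

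CASP8, the protease that starts the cascade, had the lowest log2 fold change of the 8 genes. Its probe ILMN_1673757 gave 6.08, 5.69 and 6.50 on the CpG-ODN arrays, against 6.79, 6.56 and 6.67 on the saline arrays. It was detected on all 6 arrays, but close to background on CpG-ODN arrays 1 and 2, at detection p-values of 0.0171 and 0.0448. All CpG-ODN arrays lay below all saline arrays, and the means were 6.09 ± 0.40 in CpG-ODN and 6.67 ± 0.11 in saline (SD, n = 3 each). The log2 fold change was −0.58 ± 0.22 (SE), or 0.668-fold, with a 95% interval from −1.08 to −0.09. In limma the unadjusted p was 0.0252 and the adjusted p 1.00. Leaving out CpG-ODN array 2, the lowest, brought the value to −0.38.

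The other CASP8 probes gave no common picture. ILMN_2377733 gave 7.22, 6.05 and 6.89 on the CpG-ODN arrays and 7.37, 7.21 and 6.78 on the saline arrays, a log2 fold change of −0.40 ± 0.30 (SE). Most of that came from CpG-ODN array 2, without which the value was −0.06. ILMN_1787749 was detected on CpG-ODN array 3 and saline array 1 alone, with raw intensities of 108.1, 94.8 and 342.0 on the CpG-ODN arrays and 177.5, 133.7 and 123.7 on the saline arrays. On the log2 scale CpG-ODN array 3 stood at 8.05, while the other CpG-ODN arrays lay at 5.04 and 4.78. ILMN_1809313 was detected on no array. The annotation ties the 4 probes to 4 different RefSeq transcripts of the gene, but no source used here says which exon each probe reads.

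CFLAR and XIAP, the inhibitors, both had higher means in CpG-ODN, and neither passed the test. CFLAR gave 7.41, 8.02 and 7.73 on the CpG-ODN arrays, against 7.32, 7.34 and 7.47 on the saline arrays. CpG-ODN array 1 fell below saline array 3, so the groups overlapped, with means of 7.72 ± 0.30 in CpG-ODN and 7.38 ± 0.08 in saline (SD, n = 3 each). The log2 fold change was 0.34 ± 0.19 (SE), or 1.27-fold, with a 95% interval from −0.09 to 0.78. XIAP gave 6.15, 6.34 and 5.93 on the CpG-ODN arrays and 5.78, 6.61 and 5.63 on the saline arrays. It lay close to background, at detection p-values of 0.0303 on CpG-ODN array 3 and 0.0408 on saline array 3. Saline array 2 was the highest of the 6 and the other saline arrays lay below all CpG-ODN arrays, so the groups overlapped, and the log2 fold change was 0.13 ± 0.26 (SE). Its 95% interval reached from −0.46 to 0.72. XIAP lay at 0.43 without saline array 2 and at −0.05 without saline array 3.

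**Figure D2:**
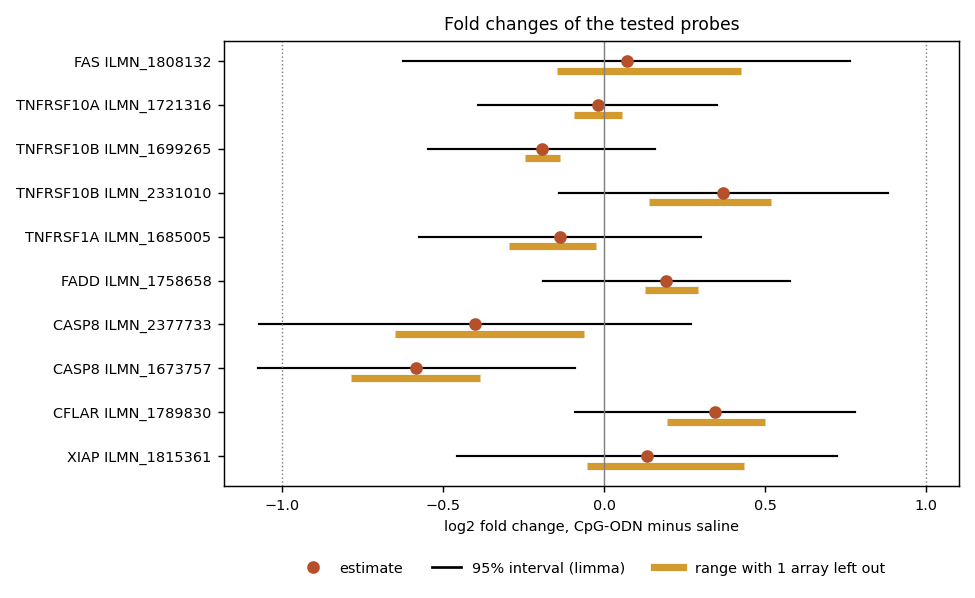
Log2 fold change (horizontal axis, CpG-ODN minus saline) of the 10 tested probes, with the 95% interval of limma as a thin line and the range of values with 1 array left out as a thick bar. The interval of CASP8 ILMN_1673757 alone does not cross 0, and the dotted lines mark 2-fold.

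The groups did not overlap for 2 of the 10 tested probes, both lower in CpG-ODN, against 9.35% of all tested probes in either direction and 5.03% in that direction. The 95% interval of the fold lay inside 2-fold for 8 of the 10, against 93.6% of all tested probes, and the other 2 were the CASP8 probes. It lay inside 1.5-fold for 4, TNFRSF10A, TNFRSF10B ILMN_1699265, TNFRSF1A and FADD, against 43.0% of all. The SD of the CpG-ODN arrays exceeded that of the saline arrays for 9 of the 10, XIAP being the exception, against 74.2% of all tested probes. The median SD of the 10 was 0.29 in CpG-ODN and 0.14 in saline, against 0.28 and 0.16 over all tested probes.

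Probes of CFLAR and CASP8 were set beside each other within each array, as the level of 1 probe minus that of another. The size of such a difference is not a ratio of transcripts, and only its change between arrays can be read. These 4 differences were chosen after the values were seen, so they are given as a description and no test of them is reported. CFLAR minus CASP8 ILMN_1673757 was 1.33, 2.32 and 1.24 on the CpG-ODN arrays, against 0.53, 0.78 and 0.80 on the saline arrays. All CpG-ODN arrays were above all saline arrays, by 0.93 log2 units on average. This pair joins the tested probe of lowest log2 fold change, −0.58, to CFLAR at 0.34, so a gap follows from the choice. How often other pairs of probes lie apart was not counted. With CASP8 ILMN_2377733 in its place the difference was 0.19, 1.97 and 0.84 on CpG-ODN arrays and −0.05, 0.13 and 0.69 on saline arrays, which overlapped.

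The probes of TNFRSF10B were compared in the same way. ILMN_2331010 minus ILMN_1699265 was −3.15, −3.82 and −3.57 on the CpG-ODN arrays and −3.89, −4.14 and −4.20 on the saline arrays, without overlap. The groups differed by 0.56 log2 units, which is how far the log2 fold changes of these probes of 1 gene lay apart. The tested CASP8 probes differed by 0.63 ± 0.44 in CpG-ODN and by 0.44 ± 0.29 in saline (SD, n = 3 each), and the groups overlapped.

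**Figure D3:**
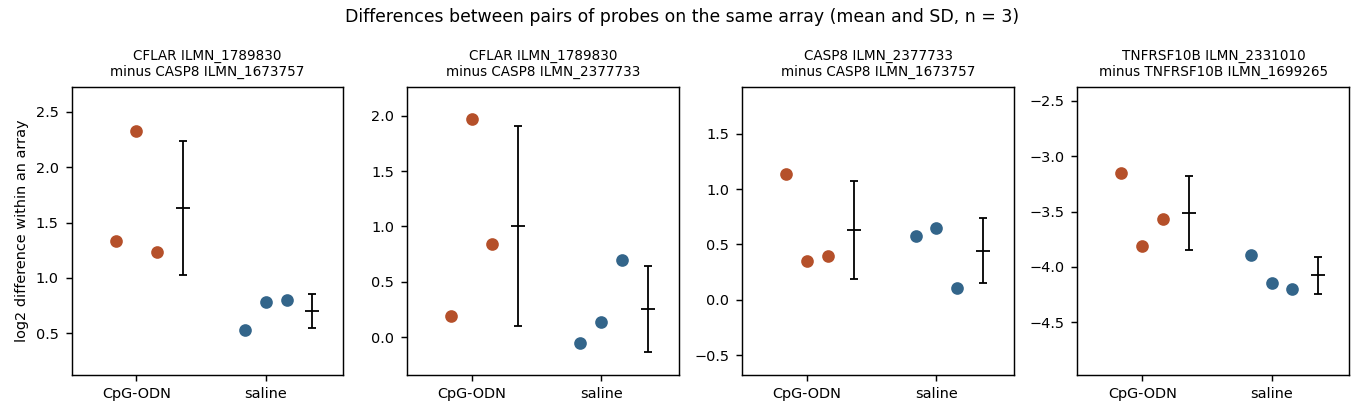
Log2 level of 1 probe minus that of another on the same array (vertical axes), for 4 pairs of probes, on the 3 CpG-ODN and the 3 saline arrays, with mean and SD. The groups lie apart for CFLAR minus CASP8 ILMN_1673757 and for the pair of TNFRSF10B probes, and overlap for the other pairs.

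The ligands FASLG, TNFSF10 and TNF, which bind FAS, the TRAIL receptors and TNFRSF1A, were each detected on 0 of 3 CpG-ODN arrays and 0 of 3 saline arrays. Of 7 ligand genes 3 were tested and 0 called: LTB, which acts through the lymphotoxin beta receptor, gave 0.29 ± 0.18 (SE) on the log2 scale, TNFSF15 gave 0.03 and LTA, which also binds TNFRSF1A and was detected on all 6 arrays, −0.01.

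Decoy receptors bind the ligands without passing on the death signal, and of 8 further receptor genes 4 were tested, 1 higher and 3 lower by their means, and 0 called. TNFRSF10D, a decoy for TRAIL, was detected on 1 CpG-ODN array and on 3 saline arrays. It gave 5.13, 5.28 and 5.70 on the CpG-ODN arrays and 6.01, 5.62 and 5.84 on the saline arrays, close to background throughout. Its log2 fold change was −0.45 ± 0.20 (SE), with a 95% interval from −0.91 to 0.001. The probe met the detection filter only through the saline arrays, where it was higher, so this direction is tied to the filter. TNFRSF21, a receptor with a death domain, gave −0.20 ± 0.16 (SE), and TNFRSF25 and TNFRSF1B, named after their values were seen, were each detected on 2 CpG-ODN and 0 saline arrays and were not tested.

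Adaptors and ubiquitin enzymes that build or trim the receptor complexes were detected on all 6 arrays for 14 of 19 genes, and 15 were tested, 9 higher and 6 lower by their means, and 0 called. DEDD, a nuclear protein with a death effector domain, gave 0.37 ± 0.18 (SE) on its brightest probe and 0.004 on another. CYLD, which removes ubiquitin chains from the complex, gave −0.35 ± 0.21 (SE). Its tested probe lay close to background, between 5.27 and 6.05, and was detected on 2 CpG-ODN and 3 saline arrays. TRADD, the adaptor of TNFRSF1A, gave −0.06, and BIRC2, a ubiquitin ligase of that complex, gave 0.03 on one probe and −0.43 on the other. RIPK1, TRAF2 and BIRC3 were not analysed here.

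Among the other caspases 5 of 10 genes were tested, 3 higher and 2 lower by their means, and 0 were called. CASP2, a caspase activated by the PIDDosome, gave −0.23, −0.31 and −0.68 on its 3 probes. The last was detected on 1 CpG-ODN and 3 saline arrays, so it met the detection filter only through the saline arrays, where it was higher. Its unadjusted p of 0.0405 and adjusted p of 1.00 in limma are tied to that filter and are no evidence of a difference. CASP4, an inflammatory caspase, gave −0.13, 0.03 and 0.31 on its 3 probes. CASP10, the close relative of caspase-8, gave 0.08 and was detected on 2 CpG-ODN and 2 saline arrays. CASP9, the initiator of the mitochondrial route, gave 0.09 on its brightest probe and −0.26 on the other.

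Downstream, BIRC6, a giant IAP protein, gave 8.20, 7.94 and 7.93 on the CpG-ODN arrays, against 8.53, 8.53 and 8.35 on the saline arrays. All CpG-ODN arrays lay below all saline arrays, at −0.44 ± 0.17 (SE, unadjusted p = 0.0253, adjusted p = 1.00 in limma). Groups lay apart in this direction for 5.03% of all tested probes. By their brightest tested probes, 1 of the 44 tested genes of all lists had an unadjusted p under 0.05, against 3.58% of all tested probes. BIRC5, or survivin, gave −0.27 on its brightest probe and 0.01 on the other, and DIABLO, which relieves caspases from XIAP, gave 0.05, −0.05 and −0.13. The 6 tested genes of the IAP list split into 3 higher and 3 lower, with 0 called.

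Substrates and mitochondrial partners of caspases were all tested, 5 higher and 3 lower with 0 called. BID, which carries the signal from caspase-8 to mitochondria, gave 0.07 and −0.09 on its probes. DFFA, the inhibitor of the apoptotic nuclease, gave 0.25 on its brightest probe and −0.19 and −0.09 on the others. LMNA, a lamin cleaved in apoptosis, gave −0.19 and 0.09. The necroptosis genes MLKL, ZBP1 and RIPK3, which act when caspase-8 is blocked, gave −0.13, −0.07 and 0.10. Over all 7 lists 44 of 63 genes were tested, 24 higher and 20 lower by their means, the median was 0.02 and 0 were called.

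**Figure D4:**
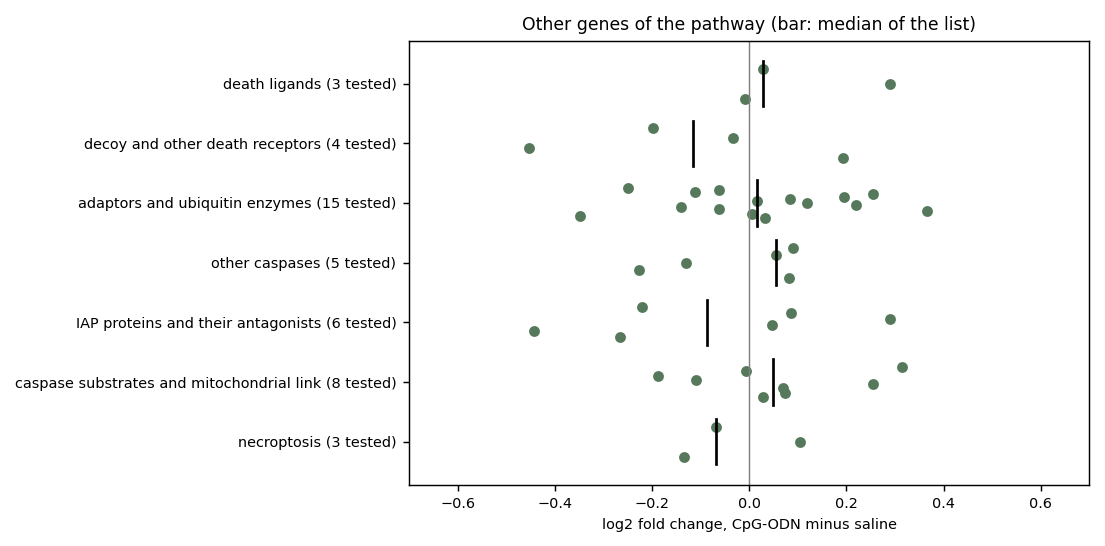
Log2 fold change (horizontal axis, CpG-ODN minus saline) of the brightest tested probe of each further gene of the pathway, by list, with the median of each list as a vertical bar. The values lie between −0.45 (TNFRSF10D) and 0.37 (DEDD).

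The profile of FAS over the 6 arrays lay nearest to those of DNAI4, ZNRF2 and PDE3B, with root mean square differences of 0.07, 0.10 and 0.12 log2 units after subtracting the mean of each probe. The median over the 14523 other named probes was 0.46. CFLAR lay nearest to ASMTL, GPATCH2L and HDDC3, at 0.05, 0.06 and 0.06, against a median of 0.33. With so many probes and 6 arrays, near profiles are a description of these arrays only.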

How the data were processed

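Total RNA of 6 samples of IGROV-1 cells was measured on 6 bead arrays, and groups came from the sample titles. The deposited intensity of each probe is linear and not normalized, with a detection p-value deposited beside it, per the file headers. The authors also deposited normalized intensities, whose method no source used here gives; they served as an alternative. The submitters' processing notes name BeadStudio.

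Intensities were corrected and quantile normalized with neqc of limma 3.58.1 in R 4.3.3 (offset 16, which shrinks the fold changes of dim probes). A probe was tested if it was detected (p under 0.05) on 3 or more of the 6 arrays, as 17950 were. The groups were compared by lmFit and eBayes, CpG-ODN minus saline, with Benjamini-Hochberg adjustment over all of them and calls at an adjusted p under 0.05. Of the probes, 28098 had 1 symbol, 13 several and 20692 none, and 28059 were matched to RefSeq names (GRCh38.p14). The fit was also run on simulated data in which both groups had the spread of the saline arrays. That run does not test the fit at the wider spread of the CpG-ODN arrays.

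The genes and lists were chosen with earlier results of these data known. Beyond the 8 genes, the text names the 2 genes of smallest unadjusted p in each list, 12 genes fixed by name, and the 3 nearest profiles of FAS and CFLAR. A gene of the lists is given by its brightest tested probe first. The number of arrays limits the precision.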

Additional observations from a re-analysis of the deposited data

How the results depend on the processing

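The alternatives were no background correction, median scaling, the deposited normalized intensities, an offset of 50, no filter, a detection p under 0.01 on all 6 arrays, array weights, a replicate block, 1 probe per gene, and each array left out in turn. In each of them limma called 0 probes, and so 0 of the 8 genes. At an unadjusted p under 0.05 the count over all probes, 643 as reported, was lowest (334) with median scaling and highest (2903) with array weights, which gave CpG-ODN array 3 a weight of 4.71 against 0.257 and 0.349 for the other CpG-ODN arrays. Of 144 values of single probes, 136 kept their sign. With array weights XIAP turned to −0.15 and TNFRSF10A to 0.091. With 1 array left out XIAP ran from −0.052 to 0.43, FAS from −0.15 to 0.43 and TNFRSF10A from −0.093 to 0.056. The median of the tested probes, 0.03, ran from −0.093 without CpG-ODN array 3 to 0.11 without saline array 2. The cause was not tested. CASP8 ILMN_1673757 stayed lower wherever it was tested, between −0.79 and −0.23, and CFLAR higher, between 0.20 and 0.50. Over the alternatives TNFRSF10B ILMN_2331010 ran from 0.14 to 0.52 and ILMN_1699265 from −0.295 to −0.138, TNFRSF1A from −0.29 to −0.025, and FADD from 0.027 to 0.29. The strict filter left 6 of the 10 probes, without CASP8, FAS and XIAP. Of the 10 probes, 5 had a higher CpG-ODN mean, against 3 without saline array 3 and 6 without saline array 2. At an unadjusted p under 0.05 the 1 probe became 3 without CpG-ODN array 1 (CFLAR and both tested CASP8 probes), with 9.17% of all probes, and 0 without CpG-ODN array 2, saline array 1 or saline array 3. It was also 0 with no background correction and with the deposited intensities, where CASP8 ILMN_1673757 lay at −0.28 on each, and with the strict filter and 1 probe per gene, which left that probe out. With array weights the probes were CFLAR and TNFRSF10B ILMN_1699265 (against 16.2% of all probes), not CASP8 (−0.23). The deviations of same-numbered arrays from their group means correlated at 0.341, 0.0499 and 0.126, which does not establish pairs, and the replicate block gave 0 calls, 893 probes at an unadjusted p under 0.05 and a median of 0.03. No chip block was run, because no chip is named.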
